A study of Mus musculus with 34 samples.

Results

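Mitochondrial ribosomal protein genes were compared between mouse embryonic stem cells (mESCs) grown without leukemia inhibitory factor (LIF) and the same cells grown without LIF and with Royalactin. The genes were chosen by symbol, as the rows of the deposited RNA-seq table named Mrpl or Mrps followed by a number and, for some, the letter a, b or c. There were 76 such genes among 23366 gene symbols, of which 47 belong to the large subunit (Mrpl) and 29 to the small subunit (Mrps). All 76 had a mean of at least 10 normalized counts over the libraries and were tested, as were 12993 genes in all. J1 mESCs are an established mouse line that needs LIF, a cytokine, to stay undifferentiated in serum. In the labels the cells are at passage 40, which is not the passage given in the study's text. They were kept in serum medium without LIF (serum/-LIF, 2 libraries) or in that medium with purified Royalactin, a protein of honey bee royal jelly, at 0.5 mg/ml (serum/-LIF + Royalactin, 2 libraries). LIF is therefore absent from every library used, and a single cell line stands for both conditions. The series holds 34 samples, and those other than these 4 RNA-seq libraries, including cells with LIF, were not analysed here.

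The mitochondrial ribosome (mitoribosome) translates the few mRNAs made from mitochondrial DNA, which encode subunits of the oxidative phosphorylation complexes. Its RNAs come from mitochondrial DNA, but its proteins are encoded in the nucleus, made by cytosolic ribosomes and imported. Many of these proteins descend from bacterial ribosomal proteins and others occur only in mitochondria, where they replace or surround shortened ribosomal RNA. The supply of mitoribosome parts is of interest when mESCs leave or keep their undifferentiated state.

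The libraries held 14737796 to 17597818 reads on genes, and 7878527 to 15999458 when the 45S ribosomal RNA precursor Rn45s was left out. Rn45s took 46.6% and 21.6% of the reads in serum/-LIF replicates 1 and 2, and 38.4% and 9.08% in serum/-LIF + Royalactin replicates 1 and 2. All 11 pluripotency markers were detected in each library, and their summed level was 26350 and 31850 normalized counts in serum/-LIF against 36980 and 43890 with Royalactin. Of these markers, Sox2, Zfp42, Klf4, Esrrb and Tfcp2l1 passed the test and were higher with Royalactin. By log2 fold change 10 of the 11 were higher and 1, Tdgf1, was lower. Tdgf1 had 10914 and 14553 normalized counts in serum/-LIF and 8695.5 and 9727.7 with Royalactin. The groups overlapped for Pou5f1 and Utf1. Between 4 and 7 of 12 fibroblast markers were at 0 in a library, and the fibroblast sum lay between 345.7 and 584.4 normalized counts. Endoderm markers summed to 605.1 to 1139 normalized counts, with 1 to 5 of 10 at 0. In these bulk libraries a change in the number of cells that express a gene cannot be told apart from a change in RNA per cell. The series is described as done in biological duplicate at least, the labels speak of cultures in triplicate where the table has 2 libraries a condition, and nothing gives the culture or day of a library, so p-values measure the spread between these libraries only.

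No mitochondrial ribosomal protein gene of either subunit passed the test between the conditions. A normalized count is the number of reads divided by the DESeq size factor of the library, and the log2 fold change is the mean of log2(normalized count + 1) with Royalactin minus the mean without it. At an adjusted p under 0.05 limma called 0 of 76 members, beside 0.493% of all 12993 genes tested (64 genes). At an unadjusted p under 0.05 it called 1 member, Mrpl43, where 9.34% of all genes passed, and by an unadjusted p under 0.05 with at least a 2-fold change it called 0 members, where 7.13% of all genes passed. The smallest adjusted p among the members was 0.507. The log2 fold change was above 0 for 30 members and below 0 for 46. Of the 30, Mrpl36, Mrpl50, Mrps5 and Mrps31 had a lower mean normalized count with Royalactin. The median log2 fold change was -0.142 (quartiles -0.344 and 0.0775), beside -0.00764 over all genes tested. The members' log2 fold changes ran from -0.863 for Mrps6 to 0.671 for Mrps2, with a median standard error of 0.37. For 36 of the 76 members the 95% confidence interval of the log2 fold change lay within a 2-fold change either way, and for the rest it reached past a 2-fold change.

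Few members separated the conditions. The conditions did not overlap, with Royalactin on top, for 7 members, where 19.7% of all genes tested did the same, and with Royalactin below for 6 members, where 18.9% of all genes did. Together these were 17.1% of the members and 38.6% of all genes. For 19 members, 25.0%, both Royalactin libraries lay between the serum/-LIF libraries, as they did for 19.9% of all genes. The plot of every member in each library shows the medians of both subunits to be higher in replicate 2 of each condition.

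**Figure D1:**
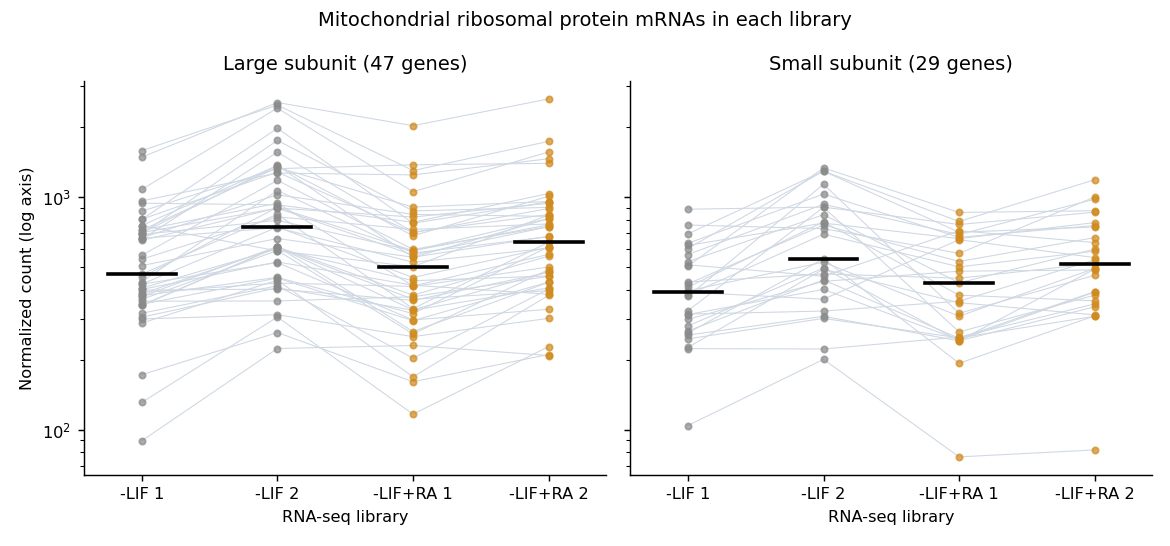
Normalized counts (log axis) of the 47 large subunit genes (left) and 29 small subunit genes (right) in the 4 RNA-seq libraries on the x axis. Each point is a gene, thin lines join the values of the same gene, and black bars are medians. For the large subunit the medians are 466.7 and 744.2 in serum/-LIF replicates 1 and 2 (grey, -LIF) and 502.9 and 640.9 in serum/-LIF + Royalactin replicates 1 and 2 (orange, -LIF+RA).

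**Figure D2:**
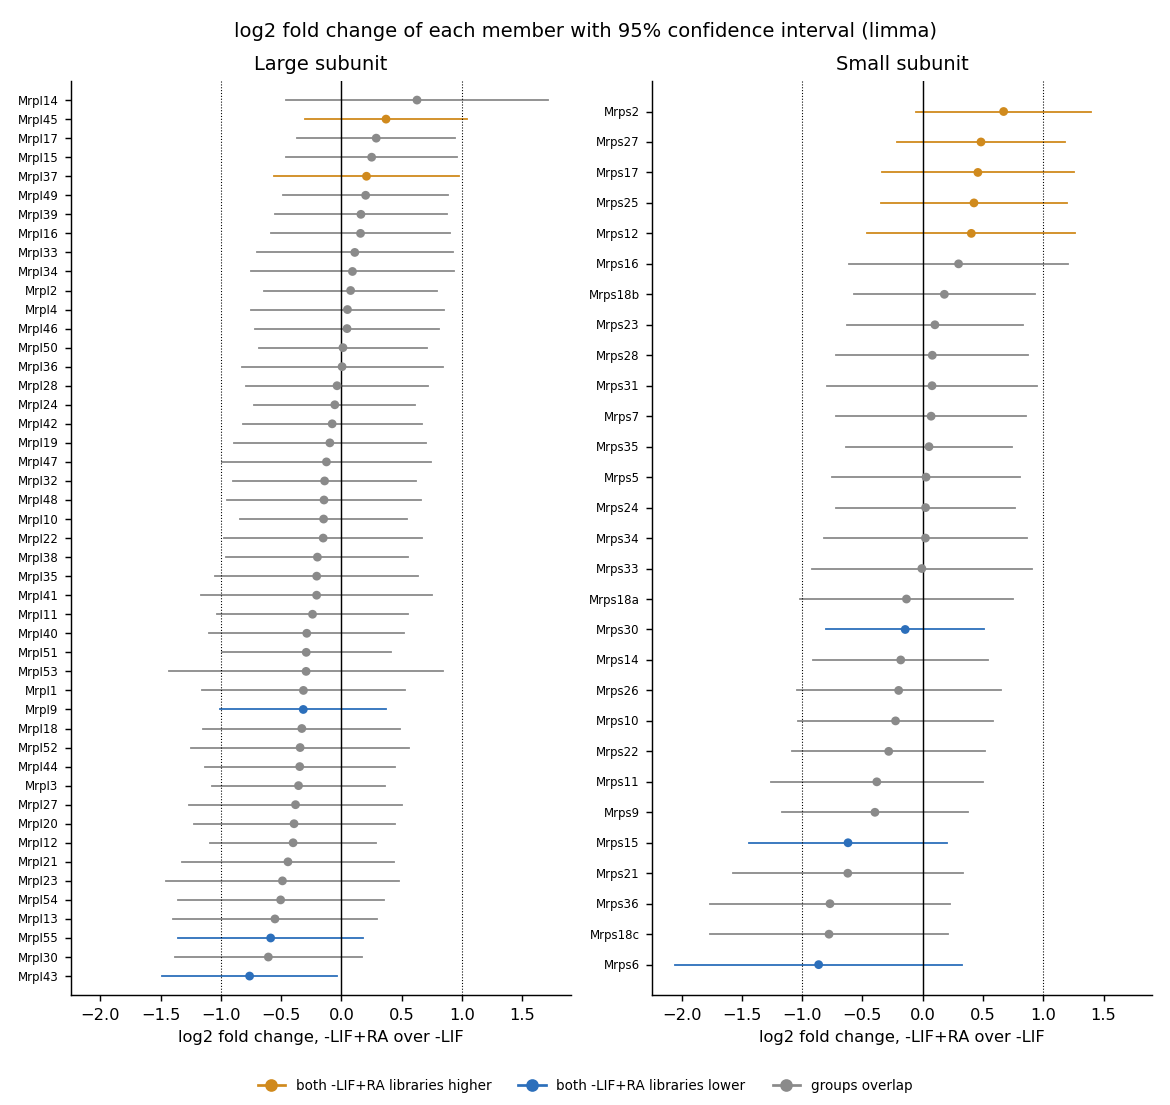
The log2 fold change of each member, serum/-LIF + Royalactin (-LIF+RA) over serum/-LIF, with its 95% confidence interval from limma on the x axis, ordered by size within the large subunit (left) and the small subunit (right). Dotted lines mark a 2-fold change, colours mark members whose groups do not overlap, and the intervals of all members except Mrpl43 include 0.

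In the large subunit the log2 fold change was above 0 for 15 genes and below 0 for 32, and 0 of 47 were called by limma. The median log2 fold change was -0.152. That sign rested on single libraries, since the median was 0.209 without serum/-LIF replicate 2 and 0.0411 without serum/-LIF + Royalactin replicate 1, and it was -0.466 without serum/-LIF replicate 1 and -0.386 without serum/-LIF + Royalactin replicate 2. Groups did not overlap for 5 genes, 3 of them lower and 2 higher with Royalactin, or 10.6% of the subunit beside 38.6% of all genes.

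Mrpl43, a mitochondria-specific protein of the large subunit, is encoded on the minus strand of chromosome 19 at 45079504 to 45080932 (mm9). It had 721 and 943 normalized counts in serum/-LIF replicates 1 and 2 and 415 and 568 in serum/-LIF + Royalactin replicates 1 and 2, with a log2 fold change of -0.76 (SE 0.34, limma adjusted p = 0.507). Both Royalactin libraries were below both serum/-LIF libraries, but the difference did not pass the test over all genes. The exons of Mrpl43 overlap those of Peo1, which encodes the mitochondrial DNA helicase Twinkle, by 97 bases on the opposite strand, and reads of the 2 genes there cannot be told apart because the strand setting of the counting is not given in the sources used here. Peo1 itself had 542 and 267 normalized counts in serum/-LIF and 395 and 407.5 with Royalactin (log2 fold change 0.08).

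The other large subunit genes whose groups did not overlap differed less. Mrpl55, a relative of bacterial L31, had 423 and 524 normalized counts in serum/-LIF and 297 and 329.7 with Royalactin (log2 fold change -0.59, SE 0.36). Mrpl9, a relative of bacterial L9, had 666 and 739 against 525 and 604 (-0.32, SE 0.32). Both were lower in each Royalactin library than in either serum/-LIF library, with adjusted p-values of 0.665 and 0.816. Mrpl45, which lines the exit of the peptide tunnel and helps to hold the ribosome at the inner membrane, had 871 and 1327 normalized counts in serum/-LIF and 1379 and 1399 with Royalactin (log2 fold change 0.37, SE 0.31). Mrpl37, a mitochondria-specific protein, had 357 and 358 against 373 and 457 (0.21, SE 0.36). These 2 genes were the only large subunit genes with both Royalactin libraries on top, and their adjusted p-values were 0.774 and 0.901. Mrpl14, at the interface with the small subunit, had the highest log2 fold change of the large subunit, 0.63 (SE 0.51), from 89.6 and 224 normalized counts in serum/-LIF and 230.3 and 209 with Royalactin, so its groups overlapped.

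The L7/L12 stalk, which recruits translation factors, is represented by Mrpl10, Mrpl11, Mrpl12, Mrpl53 and Mrpl54. All 5 had a lower mean with Royalactin (median log2 fold change -0.294), 0 were called and the groups overlapped for each of the 5. Mrpl12, the stalk protein itself, had 1586 and 2491 normalized counts in serum/-LIF and 1303 and 1739 with Royalactin. Mrpl11, at the stalk base, had 703 and 1367 against 683 and 1009, and Mrpl10, which anchors the stalk, had 691 and 796 against 588 and 761. Mrpl54 had 374 and 614 normalized counts in serum/-LIF and 265 and 431 with Royalactin, and Mrpl53 had 131 and 305 against 117 and 228. In each of the 5, replicate 2 was above replicate 1 in both conditions. Mrpl53 lies wholly within another gene model of the same strand, Ccdc142, so its reads may have been split or left uncounted.

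The central protuberance, which faces the small subunit head and in mitochondria is built largely from mitochondria-specific proteins, had 1 of 6 genes higher and 5 lower with Royalactin, a median of -0.244 on the log2 scale and 0 genes called. Mrpl18 had 1081 and 2416 normalized counts in serum/-LIF and 1056 and 1566 with Royalactin, and Mrpl40 had 563 and 1182 against 596 and 748. Mrpl27 had 364 and 590.0 against 258.5 and 489, Mrpl38 had 401 and 527 against 418 and 383, and Mrpl48 had 346 and 449 against 295 and 432. Mrpl46 was the flattest of the 6 in serum/-LIF, with 399 and 403 normalized counts there and 360.1 and 475 with Royalactin. Groups overlapped for all 6. Of the 75-base transcript tiles, 85.7% for Mrpl27 and 28.3% for Mrpl18 matched elsewhere in the genome, so their counts are uncertain.

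Around the exit of the peptide tunnel, where nascent membrane proteins leave, 2 of 6 genes were higher and 4 lower with Royalactin (median log2 fold change -0.0901), and 0 were called. Besides Mrpl45, Mrpl17 had 964 and 1270.0 normalized counts in serum/-LIF and 1247 and 1464 with Royalactin (log2 fold change 0.29, SE 0.30). Mrpl23 had 288 and 439.9 against 169 and 379 (-0.49, SE 0.45), and Mrpl47 had 433 and 1068 against 575 and 677 (-0.12, SE 0.40). Mrpl22 had 299.6 and 313 normalized counts in serum/-LIF and 251 and 301 with Royalactin, and Mrpl24 had 943 and 927 against 781 and 1037. Of these, Mrpl45 alone had groups that did not overlap. Counts of Mrpl23 and Mrpl22 are uncertain, since 76.0% and 61.5% of their transcript tiles matched elsewhere in the genome. Sorted by ancestry, the 30 large subunit genes with bacterial relatives had a median of -0.15 on the log2 scale (9 higher, 21 lower) and the 17 mitochondria-specific genes one of -0.2 (6 higher, 11 lower).

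In the small subunit the log2 fold change was above 0 for 15 genes and below 0 for 14, and limma called 0 of 29. Of the 15, Mrps5 and Mrps31 had a lower mean normalized count with Royalactin. The median log2 fold change was 0.0222. Without serum/-LIF replicate 1 the median was -0.379 and without serum/-LIF + Royalactin replicate 2 it was -0.233, whereas it was 0.211 without serum/-LIF replicate 2 and 0.166 without serum/-LIF + Royalactin replicate 1. Groups did not overlap for 8 genes, 5 higher and 3 lower with Royalactin, or 27.6% of the subunit beside 38.6% of all genes.

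Mrps2, a relative of bacterial S2 encoded on chromosome 2 at 28323586 to 28326698 (mm9, plus strand), had 390.5 and 364 normalized counts in serum/-LIF and 657 and 550.0 with Royalactin. Its log2 fold change of 0.67 (SE 0.34) was the highest of all members and did not pass the test (limma adjusted p = 0.587). Mrps27, a mitochondria-specific pentatricopeptide repeat protein, had 512 and 457 normalized counts in serum/-LIF and 718 and 638 with Royalactin (log2 fold change 0.48, SE 0.33). In Mrps2 and Mrps27 replicate 2 was the lower library in both conditions, which was the reverse of most members. Mrps17 had 314 and 324 against 357 and 538 (0.46, SE 0.37), and Mrps12, which sits at the decoding centre, had 223.3 and 223 against 250.4 and 348 (0.40, SE 0.40). Mrps25 had 298 and 435 normalized counts in serum/-LIF and 481 and 487 with Royalactin (0.42, SE 0.36), and 27.1% of its transcript tiles matched elsewhere in the genome. Of its 6073 exon bases, 3533 are overlapped by Nr2c2 on the opposite strand. Reads of both genes there cannot be told apart, since the strand setting is not given, so its counts are uncertain. In all 5 the lower Royalactin library exceeded the higher serum/-LIF library, and their adjusted p-values lay between 0.587 and 0.814.

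The small subunit genes with both Royalactin libraries below both serum/-LIF libraries were Mrps6, Mrps15 and Mrps30. Mrps6, a relative of bacterial S6, had 104 and 201 normalized counts in serum/-LIF and 76.4 and 81.9 with Royalactin, from 76 to 194 reads. Its log2 fold change of -0.86 was the lowest of all members and had the widest error (SE 0.55, adjusted p = 0.682). The exons of Mrps6 overlap those of Slc5a3 on the same strand by 159 bases, so some reads may have been left uncounted. Mrps15, a relative of bacterial S15, had 411 and 784 normalized counts in serum/-LIF and 379 and 359 with Royalactin (-0.62, SE 0.38, adjusted p = 0.669).

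Some proteins named for the small subunit sit elsewhere. Mrps18a and Mrps30 are parts of the large subunit structure, and Mrps18b and Mrps18c, related to the same bacterial S18, stay in the small subunit. Mrps18a had 266 and 441 normalized counts in serum/-LIF and 247 and 393 with Royalactin (log2 fold change -0.14), and Mrps18b had 567 and 933 against 691 and 982 (0.18). Mrps18c had 325 and 906 against 264 and 379 (-0.78, SE 0.46, adjusted p = 0.655). The 3 relatives did not share a sign, and the groups overlapped for each. Mrps30 had 888 and 907 normalized counts in serum/-LIF and 763 and 862 with Royalactin (-0.15). Mrps36, also known as a subunit of the oxoglutarate dehydrogenase complex of the citric acid cycle, had 374 and 1138 against 317 and 462 (-0.77, SE 0.46). The spread between its serum/-LIF replicates was the largest of any member, 1.6 on the log2 scale, and 88.5% of its transcript tiles matched another place in the genome, so its counts are uncertain. With Mrps18a and Mrps30 moved to the large subunit and Mrps36 left out, the medians were -0.148 for the large and 0.0255 for the small subunit.

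Promoters are shown for the genes just described and for a pair of members that share one start region. The RefSeq windows, on GRCm38.p6, run from 250 bases before to 50 bases after the gene start and were matched by symbol for 67 of the 76 members. Capitals mark the letters of 5 motifs found on either strand, which were NRF1 (GCGCANGCG), ETS (CCGGAAG), YY1 (AAGATGGCG), SP1 (GGGCGG) and E-box (CACGTG). A match on the other strand appears as the reverse complement, and no matches overlap in the windows printed. Mrpl43 and Mrps2 have the smallest and the next smallest p among the members, Mrps27 carries both an ETS and a YY1 match, and Mrpl46 and Mrps11 are the shared pair.
Mrpl43, chr19:45006393-45006692, minus strand: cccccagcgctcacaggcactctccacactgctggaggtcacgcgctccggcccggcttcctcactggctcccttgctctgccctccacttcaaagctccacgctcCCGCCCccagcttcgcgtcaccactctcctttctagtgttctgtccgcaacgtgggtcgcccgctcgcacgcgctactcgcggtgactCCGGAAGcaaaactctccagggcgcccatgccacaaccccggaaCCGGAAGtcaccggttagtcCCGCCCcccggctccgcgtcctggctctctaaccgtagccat
Mrps2, chr2:28467816-28468115, plus strand: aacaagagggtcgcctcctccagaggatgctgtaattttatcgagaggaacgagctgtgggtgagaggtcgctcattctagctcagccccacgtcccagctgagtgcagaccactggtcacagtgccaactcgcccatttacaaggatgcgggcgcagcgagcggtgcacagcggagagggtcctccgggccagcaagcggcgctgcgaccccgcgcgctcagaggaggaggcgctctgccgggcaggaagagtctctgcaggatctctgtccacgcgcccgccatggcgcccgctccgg
Mrps27, chr13:99344536-99344835, plus strand: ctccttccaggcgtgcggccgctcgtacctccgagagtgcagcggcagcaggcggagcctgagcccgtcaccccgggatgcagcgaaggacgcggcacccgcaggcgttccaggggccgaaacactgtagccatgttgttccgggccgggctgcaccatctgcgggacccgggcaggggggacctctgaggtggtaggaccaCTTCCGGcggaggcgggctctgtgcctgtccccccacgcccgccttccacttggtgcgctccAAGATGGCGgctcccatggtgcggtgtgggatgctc
Mrpl46, chr7:78783040-78783339, minus strand: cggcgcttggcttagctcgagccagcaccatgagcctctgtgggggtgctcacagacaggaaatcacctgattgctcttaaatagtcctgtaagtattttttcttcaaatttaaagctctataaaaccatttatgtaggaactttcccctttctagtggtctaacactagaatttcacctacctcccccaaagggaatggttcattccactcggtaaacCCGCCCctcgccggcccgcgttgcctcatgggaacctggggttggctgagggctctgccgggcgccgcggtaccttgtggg
Mrps11, chr7:78782881-78783180, plus strand: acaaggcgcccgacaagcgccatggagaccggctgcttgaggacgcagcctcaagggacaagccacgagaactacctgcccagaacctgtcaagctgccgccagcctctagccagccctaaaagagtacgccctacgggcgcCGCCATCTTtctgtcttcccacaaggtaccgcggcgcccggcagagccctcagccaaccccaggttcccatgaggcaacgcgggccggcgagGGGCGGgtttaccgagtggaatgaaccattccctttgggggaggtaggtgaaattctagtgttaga

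The window of Mrpl43 held 2 ETS and 2 SP1 matches, and that of Mrps2 held none of the 5 motifs. Among the 67 member promoters, 34.3% held the ETS letters, beside 18.2% of the promoters of 9539 tested genes and 9.12% of all 27025 promoters in the RefSeq set. For the YY1 letters the shares were 11.9%, 3.24% and 1.49%, and for the NRF1 letters 22.4%, 14.0% and 6.47%. The SP1 letters were in 49.3% of member promoters, 66.3% of those of tested genes and 35.9% of all, and the E-box letters in 7.46%, 10.6% and 7.24%. By subunit, ETS letters were in 12 of 41 large and 11 of 26 small subunit promoters, NRF1 letters in 11 and 4, and YY1 letters in 4 and 4. These shares are descriptions of letters in fixed windows and were not tested. The medians of the log2 fold change were -0.2 in the 23 members with ETS letters and -0.142 in the 44 without, -0.0362 in the 8 with YY1 letters and -0.152 in the 59 without, and -0.152 in the 15 with NRF1 letters and -0.14 in the 52 without. They were -0.145 in the 33 with SP1 letters and -0.147 in the 34 without, and 0.00486 in the 5 with E-box letters and -0.147 in the 62 without.

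Members often started back to back with another gene. A head-to-head neighbour, a gene on the opposite strand whose start lay at most 1000 bases upstream or 500 bases inside, was present in the GENCODE annotation on mm9 for 25 of 76 members (32.9%) and for 14.0% of the 11884 tested genes with a protein-coding gene model. Such neighbours were found for 16 of 47 large and 9 of 29 small subunit genes. Mrpl46 and Mrps11 are each other's neighbour, so a large and a small subunit gene share a start region. Mrps11 had 279.5 and 496 normalized counts in serum/-LIF and 241 and 338 with Royalactin (log2 fold change -0.38), and Mrpl46 had a log2 fold change of 0.05. Of the neighbours that were not members, 21 were tested and 0 were called by limma, with 12 higher and 9 lower with Royalactin (median log2 fold change 0.0773). The sign of the neighbour was that of the member in 6 of 21.

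The replicates of each condition differed in the same direction for nearly all members. In serum/-LIF, replicate 2 was above replicate 1 for 70 of 76 members (92.1%) with a median log2 difference of 0.632, whereas it was above for 48.3% of all genes tested. In serum/-LIF + Royalactin, replicate 2 was above replicate 1 for 69 of 76 members (90.8%) with a median of 0.357, beside 49.8% of all genes. Replicate 2 was the higher one in both conditions for 65 members. The median size of the difference, without its sign, was 0.233 from condition to condition, 0.632 from replicate to replicate in serum/-LIF and 0.357 from replicate to replicate with Royalactin. Over all genes tested the same values were 0.4, 0.567 and 0.388. The first compares means of 2 libraries and the others compare single libraries, which vary more than means. The subunits shared this pattern, with medians of 0.612 and 0.371 for the large and 0.702 and 0.341 for the small subunit.

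**Figure D3:**
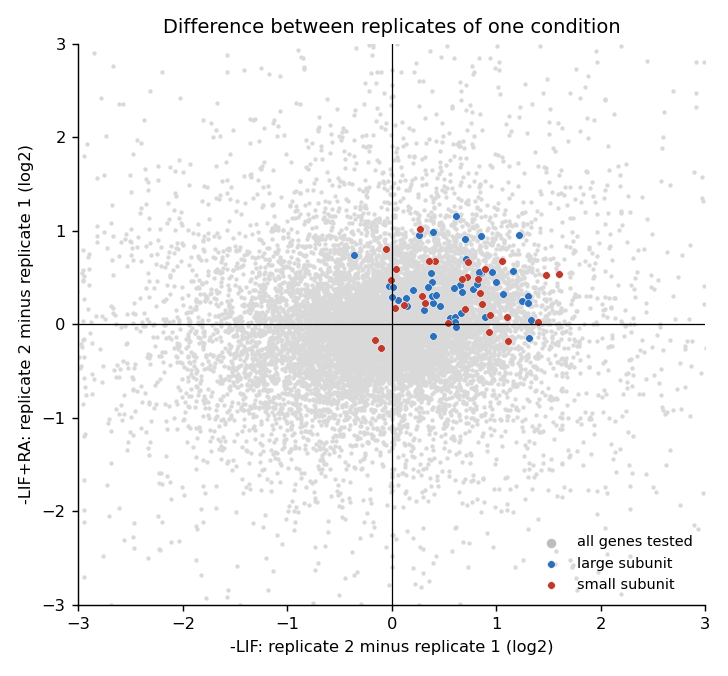
Log2 difference of replicate 2 minus replicate 1 in serum/-LIF (x axis) against the same difference in serum/-LIF + Royalactin (y axis) for all tested genes (grey) and for members of the large (blue) and small (red) subunit. Axes stop at 3 on either side, and 65 of the 76 members lie above 0 on both axes, where replicate 2 was higher in both conditions.

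Which condition looked higher therefore depended on the libraries set side by side. The median difference over the members was 0.354 for Royalactin replicate 2 over serum/-LIF replicate 1 and -0.617 for Royalactin replicate 1 over serum/-LIF replicate 2. It was -0.0378 between the replicates numbered 1 and -0.23 between those numbered 2. In both conditions the replicate with less Rn45s was the one with more mitoribosome mRNA, and the members took 0.371% and 0.521% of the normalized counts without Rn45s in serum/-LIF and 0.38% and 0.463% with Royalactin. Members are short genes, with a median exon length of 1162 bases beside 2896 over tested genes, and a median GC content of 51.48% beside 50.53%. After each library was corrected for GC content and exon length, replicate 2 was above replicate 1 for 55 members in serum/-LIF (median 0.371) and for 54 with Royalactin (median 0.128). The part of Rn45s and of depth in the replicate difference was not tested.

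Summed over the large subunit, the level was 26832 and 42904 normalized counts in serum/-LIF and 27045 and 34582 with Royalactin, or 34870 ± 11360 against 30810 ± 5329 (SD, n = 2 each). The small subunit summed to 12231 and 19405 in serum/-LIF and 13200 and 16440 with Royalactin, or 15820 ± 5073 against 14820 ± 2291. Royalactin over serum/-LIF gave ratios of 0.884 and 0.937, while the replicates of one condition differed by 1.6-fold and 1.28-fold for the large subunit. Both sums overlapped between conditions. With 2 libraries a group the exact permutation test cannot reach the threshold, so none was run.

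The ratio of the large to the small subunit sum varied little. It was 2.194 and 2.211 in serum/-LIF and 2.049 and 2.103 with Royalactin, so both Royalactin libraries were lower, and it was 2.615 in both serum/-LIF libraries and 2.363 and 2.434 with Royalactin when subunits were assigned by structure. A further set held 35 members (22 large, 13 small) with at most 5% of tiles matching elsewhere. In these, no exon of the annotated transcript with the longest coding part was overlapped by another gene. Their ratio was 1.996 and 2.094 in serum/-LIF against 1.945 and 2.07 with Royalactin, and the groups overlapped. The difference of the subunits' median log2 fold changes, large minus small, was -0.174 and shrank to -0.00199 without serum/-LIF replicate 2 and to -0.0872 without serum/-LIF replicate 1.

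**Figure D4:**
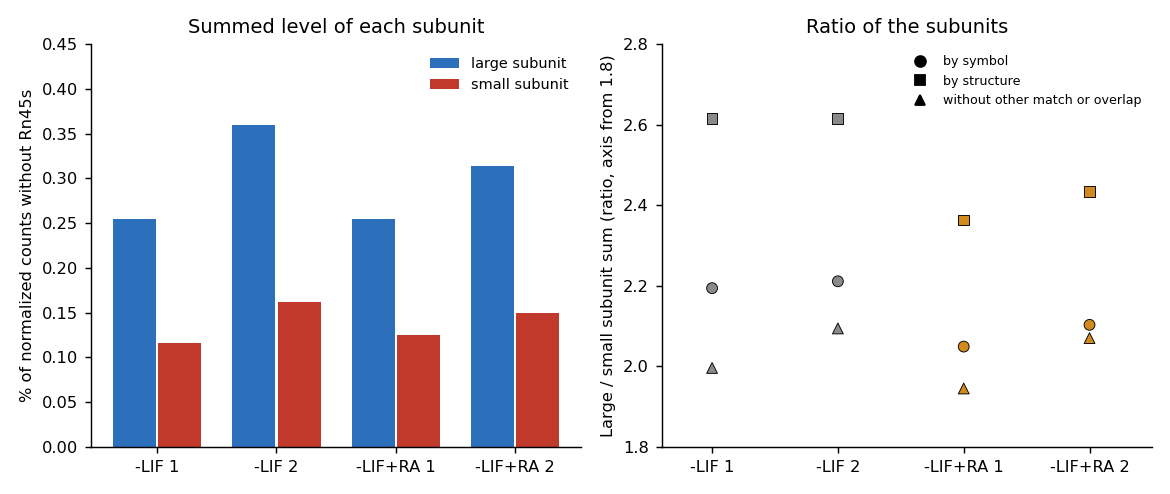
Left, summed normalized counts of each subunit as a percentage of all normalized counts without Rn45s in each library (bars from 0). Right, ratio of the large to the small subunit sum (axis from 1.8) by symbol, by structure, and in the 35 members without another genomic match or overlapping gene. The sums follow the replicate, and only the first and second of these ratios are lower in both Royalactin libraries.

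Levels were uneven across the mitoribosome, although most of its proteins are present once in each ribosome. Per kilobase of exon, the mean over the 4 libraries ranged from 88.79 to 1475 normalized counts in the large subunit (median 501.8) and from 70 to 816.9 in the small subunit (median 381.1). The highest of the large subunit were the mitochondria-specific Mrpl42 (1475), Mrpl12 (1352) and Mrpl20 (1259), a relative of bacterial L20, and the lowest were Mrpl48 (88.79), Mrpl35 (118.3) and Mrpl47 (204.6). In the small subunit the highest were Mrps36 (816.9), Mrps24 (771) and Mrps18b (735.0), and the lowest were Mrps25 (70), Mrps26 (78.83) and Mrps6 (137). The lengths are those of the annotated transcript with the longest coding part. Several low values belong to genes whose annotated transcript is long, such as Mrps25 with 6073 bases and Mrpl48 with 4285. In Mrpl48, 1865 of these bases are overlapped by D630004N19Rik on the same strand, so some reads may have been left uncounted. Several high values belong to genes with many transcript tiles that matched elsewhere in the genome. The share was 50.0% for Mrpl42, 28.0% for Mrpl12, 88.5% for Mrps36 and 63.4% for Mrps18b. It was lower for Mrpl20 (7.4%) and Mrps24 (2.7%). In single libraries, Mrpl42 had 721 and 1342 normalized counts in serum/-LIF and 907 and 958 with Royalactin, Mrpl20 had 659 and 1562 against 708 and 843, and Mrpl35 had 342 and 610 against 328 and 478. Mrps24 had 759.6 and 733 against 573 and 1003, and Mrps26 had 313 and 402 against 243 and 391. The groups overlapped for Mrpl42, Mrpl20, Mrpl35, Mrps24 and Mrps26.

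Counts are less certain for part of the family. In 20 of 76 members more than 20% of the 75-base transcript tiles matched elsewhere in the genome with up to 2 mismatches, and exons were overlapped by another gene on the opposite strand in 19 members and on the same strand in 4. In the 35 members with neither limit (at most 5% of tiles), the log2 fold change was above 0 for 18 and below 0 for 17. Mrpl50 and Mrps31, both among the 18, had a lower mean normalized count with Royalactin. Mrpl46 was kept among the 35, although exons of Mrps11 overlap exons of Mrpl46 by 173 bases. Over the 35 the median log2 fold change was 0.0121, and replicate 2 was above replicate 1 in 31 of 35 in each condition. The sign of the median over all 76 members thus did not carry over to these 35, whereas the replicate difference did.

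Other parts of mitochondrial translation likewise held no called gene. Of 7 mitoribosome proteins listed under other symbols, 2 were higher and 5 lower with Royalactin (median log2 fold change -0.091). Gadd45gip1, a large subunit protein, had the highest log2 fold change, 0.41 (559 and 529 normalized counts in serum/-LIF against 676 and 776 with Royalactin), and Mrp63 the lowest, -0.80 (246 and 949 against 220.3 and 347). Among 26 factors that assemble or modify the mitoribosome, 17 were higher and 9 lower (median 0.295) and 0 were called, with 42.3% having groups that did not overlap, near the 38.6% of all genes. Mpv17l2, an inner membrane protein needed for assembly, had a log2 fold change of 1.51 (SE 0.86, 61.5 and 11.4 normalized counts against 87.5 and 70.2), and Tfb1m, which methylates the small ribosomal RNA, one of -0.46 (277 and 387 against 222 and 253). Of 14 translation factors 10 were higher and 4 lower (median 0.195), from Taco1, a translational activator of a cytochrome oxidase mRNA (-0.54), to the initiation factor Mtif3 (0.48). In mitochondrial DNA transcription and replication 6 of 9 were higher (median 0.0773), from Ssbp1, the single-strand binding protein (-0.59), to Polrmt, the RNA polymerase (0.74). Of 8 regulators of mitochondrial biogenesis 5 were higher (median 0.144), from the coactivator Ppargc1b (-0.74) to Gabpb2, a subunit of the ETS factor GABP (0.49). None of the genes named from these lists passed the test, with adjusted p-values of 0.641 for Mpv17l2 and 0.696 for Mrp63.

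Genes of cytosolic ribosomes and of oxidative phosphorylation differed between replicates in the same direction as the members. Of 78 cytosolic ribosomal protein genes 75 had a log2 fold change below 0 (median -0.365) and 0 were called. Replicate 2 was above replicate 1 in 75 of the 78 in serum/-LIF and in 78 with Royalactin. Their extremes were Rps27 (-0.76, 68.2 and 46.6 normalized counts against 20.1 and 53.7) and Rpl39l, a paralog of Rpl39 (1.62, SE 0.45, 142 and 367 against 587 and 849, adjusted p = 0.182). Of 75 nuclear oxidative phosphorylation genes 52 had a log2 fold change below 0 (median -0.124) and 0 were called, with replicate 2 on top in 65 and 69. Ndufa2, of complex I, was the lowest (-1.13, SE 0.46, 440.0 and 615 normalized counts against 144 and 391, adjusted p = 0.45), and Cox6b2, a testis isoform of complex IV, the highest (1.23, SE 0.81, 41.5 and 16.6 against 64.4 and 62.0). After the correction for GC content and exon length the median replicate differences were 0.231 and 0.22 for cytosolic ribosomal proteins and 0.168 and 0.101 for oxidative phosphorylation genes, beside 0.371 and 0.128 for the members.

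**Figure D5:**
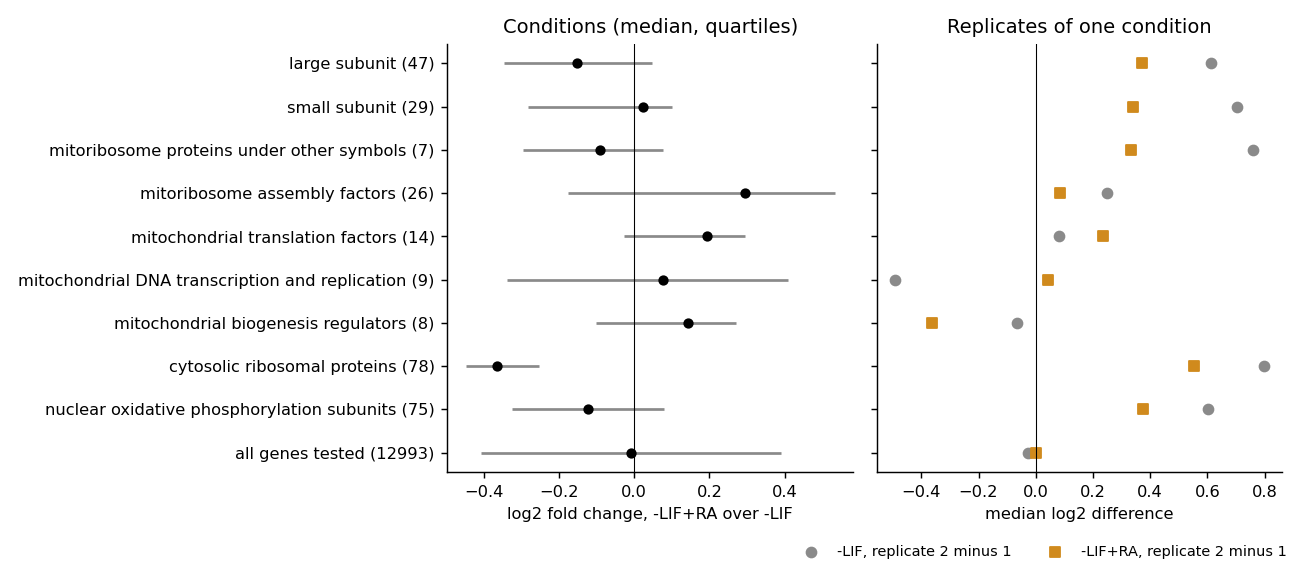
Left, median (point) and quartiles (line) of the log2 fold change, serum/-LIF + Royalactin over serum/-LIF, in each gene list with the number of genes tested. Right, median log2 difference of replicate 2 minus replicate 1 in serum/-LIF (grey circles) and serum/-LIF + Royalactin (orange squares). For the subunits, cytosolic ribosomal proteins and oxidative phosphorylation subunits the replicate differences lie above 0 and are larger than the medians on the left.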

How the data were processed

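RNA-seq of J1 mESCs was used, with 2 libraries from serum/-LIF and 2 from serum/-LIF + Royalactin, assigned by labels that match the column names of the deposited table. The authors depleted ribosomal RNA, aligned reads to mm9 with Tophat, took gene counts from HTSeq-count and divided these by DESeq size factors. The deposited values are thus a signal proportional to reads, and their annotation and strand setting are not given in the sources used here. Read numbers are values divided by a library's step, of which 100% of values were whole multiples to within 0.01.

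Genes with a mean of at least 10 normalized counts entered limma 3.58.1 (R 4.3.3) as log2(normalized count + 1), with lmFit and a variance trend in eBayes. Tests were two-sided, p-values were adjusted over all 12993 genes by Benjamini-Hochberg, and the step was tested on simulated data. Fold changes of low genes are understated on this scale. Called means an adjusted p under 0.05, and the study's rule (p of 0.05 and 2-fold, no adjustment named) was run on the limma p-values. Lists are described by counts and medians, and a gene counts as higher or lower by the sign of its log2 fold change. Gene models of GENCODE on NCBIM37 (mm9) gave positions, exon lengths and GC content for 94.5% of tested genes, transcript tiles of 75 bases were mapped with minimap2 2.31, and promoters come from RefSeq on GRCm38.p6.

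Members and lists were chosen with earlier results of these data known. Named are, for each subunit, up to 5 highest and 5 lowest log2 fold changes among members whose groups did not overlap, the 3 highest and 3 lowest levels per kilobase, members of the stalk, central protuberance and exit tunnel, and Mrps18a to Mrps18c, Mrps30 and Mrps36. Mrpl14 and Mrps11 were added after their values were seen. In other lists the highest and lowest log2 fold change and called genes are named. Alternatives were pseudocounts of 0.1 and 5, no filter or a mean of 50, scaling to the total without Rn45s, the upper quartile or the median ratio, no trend, the replicate block, a lowess correction (span 0.3) for GC content and exon length, each library left out in turn, and subunits by structure.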

Additional observations from a re-analysis of the deposited data

How the results depend on the processing

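In each alternative run, 0 members of either subunit were called, and the smallest adjusted p among them lay between 0.12 and 1.0. The number of members with an unadjusted p under 0.05 ranged from 0 to 14. Over all genes, 64 were called, against 32 with a pseudocount of 0.1, 34 without a filter, 99 with a mean of at least 50, 343 after the correction for GC content and exon length, 0 without the trend of the variance (1135 genes at an unadjusted p under 0.05) and 927 by the unadjusted p with a 2-fold change. Leaving out any library gave 0 called genes, although 428 to 2496 genes had an unadjusted p under 0.05. In these fits 1 group holds a single library, which is assumed to vary like the others. The causes of these shifts were not tested, and the fits with a library left out also rest on fewer samples.

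With the libraries left out in turn, the median log2 fold change ran from -0.466 to 0.209 in the large subunit and from -0.379 to 0.211 in the small subunit, the lowest both without serum/-LIF replicate 1 and the highest both without serum/-LIF replicate 2. The difference of the medians ran from -0.153 to -0.00199. Under the other pseudocounts, filters and scalings, the correction and the assignment by structure, the sign of each median was kept, and scaling to the total without Rn45s gave -0.0965 and 0.0775. This scaling moved the median of all genes from -0.00764 to 0.0472.

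The replicate numbers are shared by the conditions, but no label says what they mark, and the deviations of the libraries numbered 1 from their group means had a correlation of 0.0851 over 12993 genes. With the replicate block 391 genes were called, and 815 with the block and the correction together. No member was among them, 3 members had an unadjusted p under 0.05 with the block alone, and the block leaves the medians of both subunits at -0.152 and 0.0222.

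The members had 67 to 3845 reads in a library. Errors were widest in members with few reads, such as Mrps6 (76 to 194 reads, SE 0.55), Mrpl53 (98 to 331, SE 0.53) and Mrpl14 (67 to 303, SE 0.51). With 2 libraries a group the median standard error was 0.37, and 36 of 76 intervals stayed within a 2-fold change.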
